A study of Gallus gallus with 9 samples.

Results

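Genes of protein folding in the endoplasmic reticulum (ER) and of the unfolded protein response were followed in chicken (Gallus gallus) primordial germ cells, the embryonic precursors of eggs and sperm. The set was a list of 38 gene symbols, of which 36 were matched, each to 1 identifier, among the 24356 genes counted, and ATF6 and SYVN1 were not analysed here. All 36 passed the filter on low counts that left 15475 genes for testing. Poly(A) RNA was sequenced from 3 groups of 3 libraries: wild-type cells carrying a control vector, cells labelled LIN28A knockout and cells labelled LIN28B knockout. The LIN28 proteins bind RNA and are best known as brakes on let-7 microRNA processing, and the series title concerns their role in maintaining these cells. How each gene was disrupted, whether a group is 1 clone, the age and sex of the embryos and whether a group's libraries are separate cultures are not stated in the labels. The p-values therefore cover no more than the differences among these libraries, which may be technical.

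Secreted and membrane proteins enter the ER through the SEC61 channel, are folded there by chaperones and disulfide-forming enzymes, and are sent to the proteasome when folding fails. The membrane sensors ERN1 (IRE1), EIF2AK3 (PERK) and ATF6 detect unfolded protein. In mammals ERN1 splices the XBP1 transcript into the form that encodes an active transcription factor, EIF2AK3 slows translation and raises ATF4, and ATF6 is cut to release a transcription factor, and these arms raise chaperone and degradation genes. Counts per gene do not tell spliced from unspliced XBP1 and do not measure the activity of the sensors.

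Each library held between 27.7 and 32.2 M counts, and levels are given as CPM (CPM is counts scaled to library size, after adjustment between libraries), which are not corrected for gene length and are compared only between libraries. The lowest value of any member in any library was 11.4 CPM, against a floor of 3 counts that stood for 0.0904 to 0.112 CPM. LIN28A stood at 160, 144 and 244 CPM in control, at 117, 109 and 17.7 CPM in LIN28A knockout and at 173, 179 and 242 CPM in the libraries labelled LIN28B knockout. LIN28B stood at 52.3, 45.3 and 61.9 CPM in control, at 40.3, 41.7 and 38.0 CPM in LIN28A knockout and at 55.0, 59.6 and 50.3 CPM in the libraries labelled LIN28B knockout. The transcript of LIN28B was thus not lower under its own label, so directions drawn for that group rest on the label alone. The log2 difference of LIN28A between LIN28A knockout and control was −1.17 ± 0.53 (SE) and did not pass edgeR (adjusted p = 0.479), with replicate 3 far below the other libraries. Replicate 3 stood apart from replicates 1 and 2 in every group: over the 36 members the root mean square log2 difference was 0.0876 to 0.118 between replicates 1 and 2 and 0.229 to 0.561 between replicate 3 and either of them, the largest in LIN28A knockout. All 8 germ cell markers of a marker list, among them DDX4, DAZL and NANOG, were detected. Their summed level was 3720 to 3800 CPM in control, 3000 to 3450 CPM in LIN28A knockout and 3810 to 4060 CPM under the LIN28B label. DAZL made the largest part, at 1800, 1900 and 2100 CPM in control and 1340, 1390 and 1510 CPM in LIN28A knockout. Against control, DAZL and CXCR4 were lower in every LIN28A knockout library, and PRDM14 was higher (151 to 162 against 116 to 119 CPM). The other markers overlapped between LIN28A knockout and control, with DDX4 at 791, 815 and 516 against 617, 595 and 637 CPM. All 8 fibroblast markers were detected too, though DCN, POSTN and TWIST1 each fell to 0 in a library. Their summed levels were 1390, 1350 and 454 CPM in replicates 1, 2 and 3 of LIN28A knockout. The sums were 563 to 973 CPM in control and 426 to 999 CPM under the LIN28B label. COL1A1, COL1A2 and COL3A1 made most of them, and LUM, DCN, POSTN and TWIST1 reached at most 6.62 CPM. In replicate 3 of control and of the LIN28B label COL1A2 was high, at 695 and 720 CPM. COL1A1 was lower there than in replicates 1 and 2. Of the endothelial, leukocyte and erythroid lists 4 of 4, 3 of 4 and 1 of 5 markers were matched, none at 0 in every library, with summed levels of 5.82 to 42.5, 9.63 to 23.2 and 0 to 0.68 CPM.

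Within the ER set, HERPUD1 (ENSGALG00000001220) was the 1 of 36 members (2.78%) whose 3 groups did not overlap, a share near the 2.24% of all genes whose groups stood fully apart in any order. This gene, which encodes a membrane protein of the ER-associated degradation machinery, was higher in LIN28A knockout than in the libraries labelled LIN28B knockout, with control in between and no overlap among the 3 groups. Most folding genes differed little: 25 of 36 members lay within 0.2 of 0 on the log2 scale in LIN28A knockout against control, and 29 of 36 did in the libraries labelled LIN28B knockout against control. Between the knockout labels 20 of 36 did. Over all 15475 genes tested, 7467, 7582 and 6110 did in the same order. Those genes were not matched to the members in level, and the part of level in these shares was not tested. Calreticulin (CALR, ENSGALG00000040368), a lectin chaperone, was lower than in every control library in all libraries of both knockout labels. Of all genes, 9.78% lay wholly below control in LIN28A knockout and 11.4% did under the LIN28B label. The share that did so in both, against the same controls, was not counted, and edgeR called CALR in neither comparison. A further set of members, led by ERO1B and SEL1L, was high in a single library, LIN28A knockout replicate 3. These are bulk libraries, in which fewer cells of a type and less RNA per cell cannot be told apart, and the part of the marker levels above in these differences was not tested.

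Across all genes, the quasi-likelihood test of edgeR at a Benjamini-Hochberg adjusted p under 0.05 called 0 of 36 members in LIN28A knockout against control, where it called 0.00646% of all genes tested. At an unadjusted p under 0.05 there were 3 members (8.33%), against 10.6% of all genes, and DESeq2 called 1 member, CALR, lower, against 2.12% of genes in either direction and 0.929% in the lower. Without LIN28A knockout replicate 3 edgeR called 1 member, also CALR, against 2.86% of genes. In the libraries labelled LIN28B knockout against control edgeR called 0 members, against 0.0129% of genes. At an unadjusted p under 0.05 there were 4 members (11.1%), all lower, against 8.87% of genes in either direction and 4.42% in the lower. DESeq2 called 1 member, HERPUD1, lower, against 0.751% of genes in either direction and 0.445% in the lower. Without LIN28A knockout replicate 3 edgeR called 2 members, HERPUD1 and EIF2AK3, against 1.05% of genes. In LIN28A knockout against the libraries labelled LIN28B knockout edgeR called 1 member, HERPUD1, higher, against 0.517% of genes in either direction and 0.375% in the higher. There 9 members (25%) had an unadjusted p under 0.05, against 18% of genes, and DESeq2 called 2 (HERPUD1 and XBP1), against 6.05% of genes. Without LIN28A knockout replicate 3 edgeR called HERPUD1 alone, against 3% of genes. With replicates 1 and 2 of each group only, 12, 11 and 20 members were called in the 3 comparisons, against 30.1%, 31.2% and 39.5% of genes.

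The medians of the set stayed close to those of all genes. The median log2 fold change was 0.04 over the members and 0.02 over all genes in LIN28A knockout against control, with 20 members above and 16 below control. It was −0.03 over the members, with 14 above and 22 below, and 0.00 over all genes in the libraries labelled LIN28B knockout against control. For LIN28A knockout against the LIN28B label it was 0.07 over the members, with 24 above and 12 below. Over all genes it was 0.00 there, with 7794 above and 7681 below. Groups did not overlap for 4 members in LIN28A knockout against control (11.1%, against 18% of genes), for 6 under the LIN28B label against control (16.7%, against 22.9%) and for 8 between the knockout labels (22.2%, against 24.3%). These shares lay at or below those of all genes. The comparisons with control share the same control libraries and are not independent of each other.

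**Figure D1:**
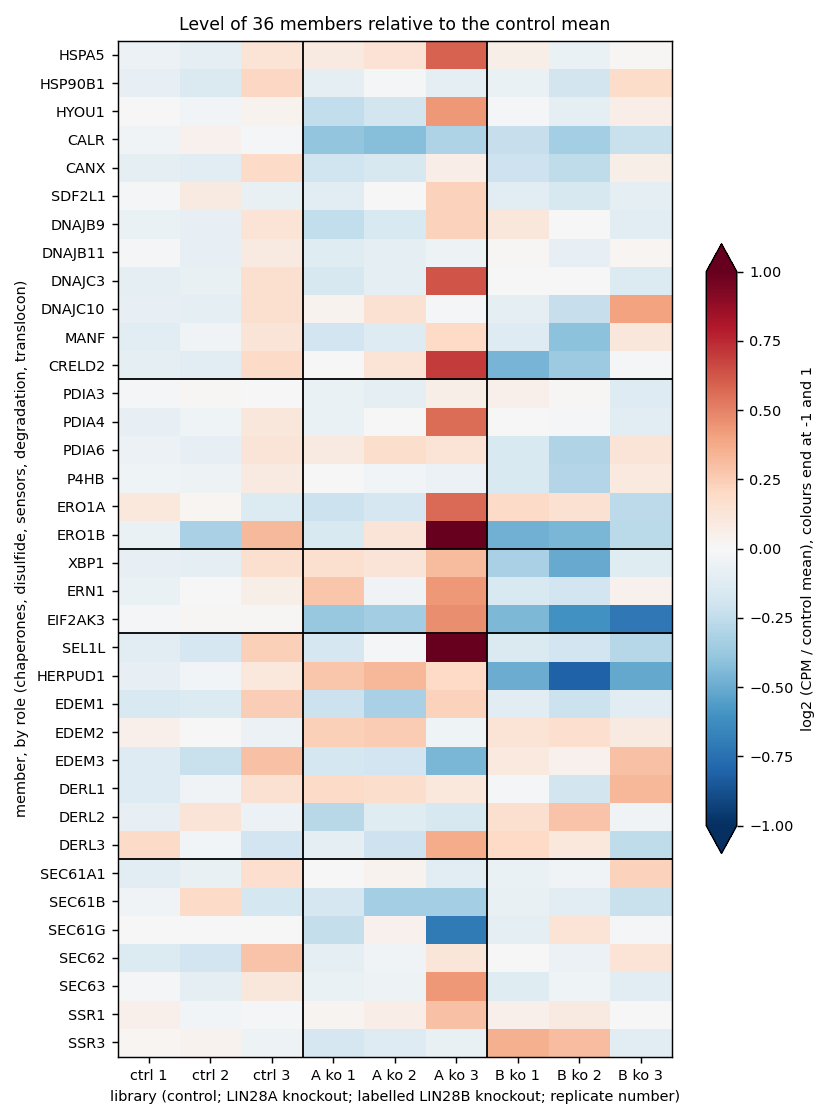
Each cell shows the log2 ratio of a member's CPM in 1 library to the mean of the 3 control libraries, with members in rows by role and libraries in columns. HERPUD1 is above control in LIN28A knockout and below it in the libraries labelled LIN28B knockout, CALR is below control in both, and ERO1B and SEL1L are high in LIN28A knockout replicate 3.

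The sensor genes ERN1 and EIF2AK3, and XBP1, were examined next, and edgeR called 0 of these 3 in any comparison. At an unadjusted edgeR p under 0.05 there were 0 in LIN28A knockout against control. Under the LIN28B label against control 2 were lower, XBP1 and EIF2AK3. Between the knockout labels the same 2 were higher in LIN28A knockout. These were 0%, 66.7% and 66.7% of the 3, against 10.6%, 8.87% and 18% of all genes. Only EIF2AK3 of the 2 is a sensor gene. The list was chosen with earlier results of these data known, so these shares are a description. XBP1, the transcription factor downstream of ERN1, stood at 111, 110 and 131 CPM in control, at 131, 128 and 146 CPM in LIN28A knockout and at 93.6, 82.8 and 108 CPM in the libraries labelled LIN28B knockout. Every library under the LIN28B label was below every control and every LIN28A knockout library, while LIN28A knockout and control overlapped. The log2 difference of XBP1 between LIN28A knockout and the LIN28B label was 0.51 ± 0.13 (SE), which did not pass edgeR (adjusted p = 0.0992) and passed DESeq2 (adjusted p = 0.0218). Against control it was 0.20 ± 0.13 in LIN28A knockout (edgeR adjusted p = 0.622) and −0.30 ± 0.13 under the LIN28B label (edgeR adjusted p = 0.554).

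EIF2AK3, the kinase PERK, stood at 23.9, 24.3 and 24.3 CPM in control, at 18.6, 19.0 and 33.3 CPM in LIN28A knockout and at 17.7, 15.9 and 14.7 CPM under the LIN28B label. The LIN28B-labelled libraries were below all others, and the LIN28A knockout libraries lay on both sides of the tightly grouped controls. The log2 fold change under the LIN28B label was −0.58 ± 0.22 (edgeR adjusted p = 0.524). In the fit without LIN28A knockout replicate 3, a library outside this comparison but in the shared fit, the same difference was −0.59 and was called (edgeR adjusted p = 0.0484). ERN1, which encodes the sensor IRE1, differed less: it stood at 21.7, 22.8 and 23.7 CPM in control, at 27.5, 22.2 and 30.7 CPM in LIN28A knockout and at 20.5, 19.9 and 23.4 CPM under the LIN28B label. Its log2 fold changes against control were 0.24 ± 0.15 and −0.09 ± 0.15 (edgeR adjusted p = 0.631 and 0.873), with groups that overlapped.

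Among the 12 chaperone genes and cochaperones, edgeR called 0 in each of the 3 comparisons. At an unadjusted p under 0.05 there was 1 in each (8.33%), lower in both comparisons with control and higher between the knockout labels, against 10.6%, 8.87% and 18% of all genes. CALR stood at 505, 533 and 513 CPM in control, at 394, 384 and 417 CPM in LIN28A knockout and at 441, 409 and 442 CPM under the LIN28B label. All 6 libraries of the knockout labels lay below the lowest control. Taken singly, 9.78% of all genes lay wholly below control in LIN28A knockout and 11.4% under the LIN28B label. The log2 fold change of CALR was −0.38 ± 0.09 in LIN28A knockout, which did not pass edgeR over all libraries (adjusted p = 0.176) and passed DESeq2 (adjusted p = 0.0134). Without LIN28A knockout replicate 3 it was −0.41 and passed edgeR (adjusted p = 0.0251). Under the LIN28B label it was −0.26 ± 0.09 (edgeR adjusted p = 0.488, DESeq2 adjusted p = 0.226). The membrane-bound relative of CALR, calnexin (CANX), averaged 640 ± 79.4, 600 ± 61.0 and 586 ± 70.3 CPM (SD, n = 3 each) in control, LIN28A knockout and under the LIN28B label, with groups that overlapped.

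HSPA5 encodes BiP, the HSP70 chaperone of the ER lumen and the classical marker of the unfolded protein response. It stood at 532, 520 and 611 CPM in control, at 590, 612 and 836 CPM in LIN28A knockout and at 577, 529 and 560 CPM under the LIN28B label. LIN28A knockout replicate 3 held the highest value, the other LIN28A knockout libraries lay close to control replicate 3, and every LIN28A knockout library was above every LIN28B-labelled one. The log2 fold change in LIN28A knockout was 0.29 ± 0.14 (edgeR adjusted p = 0.503), and 0.12 without LIN28A knockout replicate 3 (edgeR adjusted p = 0.559). Under the LIN28B label it was 0.00 ± 0.14 (edgeR adjusted p = 0.997).

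The other chaperones showed small differences. HSP90B1, the HSP90 of the ER (GRP94), differed from control by −0.07 ± 0.13 on the log2 scale in LIN28A knockout and by −0.02 ± 0.13 under the LIN28B label (edgeR adjusted p = 0.884 and 0.980). HYOU1 (GRP170), which exchanges the nucleotide of BiP, stood at 525, 518 and 540 CPM in control and at 446, 464 and 714 CPM in LIN28A knockout, so that 2 libraries were below and 1 above every control. Its mean difference from control was 0.04 ± 0.16 on the log2 scale (edgeR adjusted p = 0.962), and −0.21 without LIN28A knockout replicate 3 (edgeR adjusted p = 0.186). The J-domain cochaperones DNAJB9, DNAJB11, DNAJC3 and DNAJC10, which recruit substrates to BiP, had log2 fold changes between −0.09 and 0.17 in LIN28A knockout and between −0.05 and 0.05 under the LIN28B label. SDF2L1, a partner of DNAJB11, averaged 51.1 ± 2.91 CPM in control and 47.0 ± 1.17 CPM under the LIN28B label (n = 3 each), where its libraries did not overlap with control. That is −0.12 ± 0.12 on the log2 scale (edgeR adjusted p = 0.783).

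Among secreted stress proteins, CRELD2, an ER-stress-induced protein with disulfide-exchange motifs, stood at 39.2, 38.7 and 47.7 CPM in control, at 41.9, 46.0 and 68.1 CPM in LIN28A knockout and at 30.3, 32.6 and 41.2 CPM under the LIN28B label. All LIN28A knockout libraries were above all LIN28B-labelled ones, narrowly between the lowest of the former and the highest of the latter. The log2 difference of CRELD2 between the knockout labels was 0.58 ± 0.20 (edgeR adjusted p = 0.187), and 0.34 without LIN28A knockout replicate 3 (edgeR adjusted p = 0.279). MANF, a neurotrophic factor held in the ER by BiP, averaged 76.6 ± 6.33, 75.1 ± 11.4 and 70.3 ± 12.6 CPM (n = 3 each) in control, LIN28A knockout and under the LIN28B label.

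**Figure D2:**
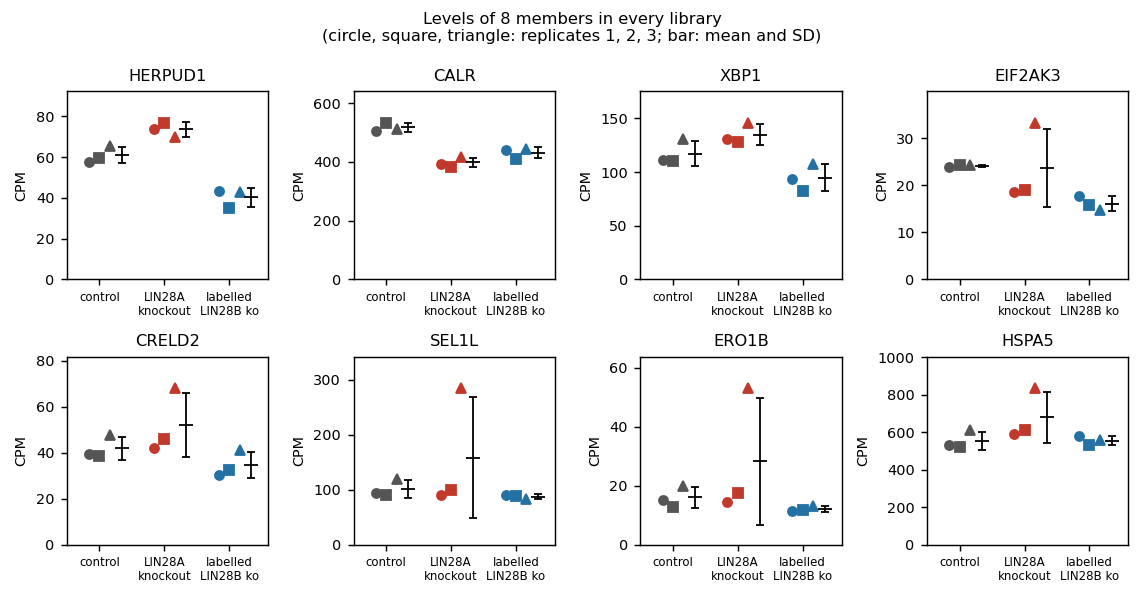
CPM of 8 members in each library, with circles, squares and triangles for replicates 1, 2 and 3 and bars for the mean and SD of each group of 3. The triangles of LIN28A knockout stand far above the other points for SEL1L (285 CPM) and ERO1B (53.2 CPM), while HERPUD1 and CALR differ from control in all replicates.

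The 6 genes of disulfide formation comprise protein disulfide isomerases and the oxidases that recharge them, and edgeR called 0 of them in any comparison. At an unadjusted p under 0.05 there was 1, ERO1B between the knockout labels (16.7%, against 18% of all genes), and DESeq2 called 0. PDIA3 (ERp57), which works with CALR and CANX on glycoproteins, averaged 754 ± 8.63, 736 ± 42.9 and 743 ± 48.0 CPM (n = 3 each) in control, LIN28A knockout and under the LIN28B label. P4HB, the founding disulfide isomerase and a subunit of collagen prolyl hydroxylase, was at 690 ± 36.8, 676 ± 14.9 and 640 ± 88.0 CPM (n = 3 each) in the same order. PDIA6 was at 353 ± 29.9, 387 ± 11.2 and 331 ± 51.2 CPM (n = 3 each). PDIA4 (ERp72) was even across libraries except for LIN28A knockout replicate 3, at 638 CPM against 399 to 468 CPM in the other 8. The oxidase gene ERO1B stood at 15.2, 12.7 and 19.9 CPM in control, at 14.3, 17.4 and 53.2 CPM in LIN28A knockout and at 11.4, 11.6 and 13.2 CPM under the LIN28B label. The difference of ERO1B from control was 0.83 ± 0.43 on the log2 scale in LIN28A knockout (edgeR adjusted p = 0.541) and turned to −0.01 without replicate 3 of that group (edgeR adjusted p = 0.994). Its paralogue ERO1A ranged from 34.1 to 46.7 CPM in 8 libraries and reached 60.4 CPM in LIN28A knockout replicate 3.

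Of the 8 degradation genes analysed, edgeR called 1, HERPUD1, in LIN28A knockout against the LIN28B label, where it called 0.517% of all genes. It called 0 in LIN28A knockout and under the LIN28B label against control, where it called 0.00646% and 0.0129% of genes. At an unadjusted edgeR p under 0.05 HERPUD1 was the 1 against control, higher in LIN28A knockout and lower under the LIN28B label. Between the labels there were 4, with HERPUD1 and SEL1L higher in LIN28A knockout and EDEM3 and DERL2 lower. These were 12.5%, 12.5% and 50% of the 8, against 10.6%, 8.87% and 18% of all genes. The difference of SEL1L between the labels was 0.86 on the log2 scale, and 0.12 without LIN28A knockout replicate 3. HERPUD1 is known in mammals as a strongly stress-induced gene whose product organises the ubiquitin ligase complex of the ER membrane. It stood at 57.6, 59.8 and 65.6 CPM in control, at 73.9, 76.9 and 69.9 CPM in LIN28A knockout and at 43.2, 34.8 and 42.7 CPM under the LIN28B label. Each LIN28A knockout library was above, and each LIN28B-labelled library below, every control, an order that 0.756% of all genes tested shared and no other member did. HERPUD1 was higher in LIN28A knockout than under the LIN28B label by 0.87 ± 0.12 on the log2 scale (edgeR adjusted p = 0.0254). Against control it was 0.27 ± 0.12 in LIN28A knockout (edgeR adjusted p = 0.463) and −0.60 ± 0.12 under the LIN28B label (edgeR adjusted p = 0.291, DESeq2 adjusted p = 0.00769). The call between the knockout labels was lost when the fit held those 2 groups only (edgeR adjusted p = 0.138). It was also lost when replicate 1 or 2 of any group was left out, with log2 differences of 0.78 to 0.93. The edgeR adjusted p was then 0.0704 and 0.0682 for the control libraries, 0.0769 and 0.0827 for those of LIN28A knockout, and 0.130 and 0.138 for those labelled LIN28B knockout. Over all alternatives the adjusted p ran from 3.24e-10, with replicates 1 and 2 of each group only, to 0.138.

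SEL1L, the scaffold of the HRD1 ubiquitin ligase, stood at 93.1, 89.8 and 119 CPM in control, at 89.8, 99.2 and 285 CPM in LIN28A knockout and at 90.9, 88.3 and 82.8 CPM under the LIN28B label. LIN28A knockout replicate 3 stood alone, 3.01-fold above the mean of replicates 1 and 2 of its group, and the other 8 libraries lay between 82.8 and 119 CPM. The log2 fold change against control was 0.65 ± 0.37 (edgeR adjusted p = 0.589), and −0.09 without that library (edgeR adjusted p = 0.776). The EDEM genes encode mannosidase-like proteins that mark misfolded glycoproteins for removal. EDEM3 stood at 66.6, 62.4 and 89.1 CPM in control, at 64.3, 63.6 and 52.9 CPM in LIN28A knockout and at 77.8, 74.7 and 89.2 CPM under the LIN28B label. The knockout labels did not overlap, and both overlapped with control. The log2 difference of EDEM3 between LIN28A knockout and the LIN28B label was −0.42 ± 0.16 (edgeR adjusted p = 0.212). EDEM1 and EDEM2 differed between these labels by 0.07 ± 0.17 and 0.03 ± 0.13 (edgeR adjusted p = 0.858 and 0.931).

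The derlins are membrane proteins through which misfolded proteins leave the ER. DERL2 was at 33.8, 39.0 and 34.3 CPM in control, at 29.4, 32.8 and 32.0 CPM in LIN28A knockout and at 39.9, 43.4 and 34.9 CPM under the LIN28B label. LIN28A knockout was below both other groups without overlap, and its log2 difference from the LIN28B label was −0.33 ± 0.13 (edgeR adjusted p = 0.238). DERL1 was at 231 ± 23.0, 258 ± 8.22 and 242 ± 45.0 CPM (n = 3 each) in control, LIN28A knockout and the LIN28B label, and DERL3 at 27.4 ± 3.67, 28.3 ± 6.28 and 27.9 ± 4.36 CPM (n = 3 each), with groups that overlapped for both genes.

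Genes of the translocon differed little. None of the 7 was called by edgeR or DESeq2 in any comparison, and 5, 7 and 4 of them lay within 0.2 of 0 on the log2 scale in LIN28A knockout against control, the LIN28B label against control and the knockout labels against each other. At an unadjusted p under 0.05 there were 1, 0 and 1 lower (14.3%, 0% and 14.3%, against 10.6%, 8.87% and 18% of all genes) and 0 higher. The channel subunit gene SEC61A1 was at 359 ± 37.8, 354 ± 17.7 and 372 ± 43.2 CPM (n = 3 each) in control, LIN28A knockout and the LIN28B label. The small channel subunit gene SEC61B stood at 115, 134 and 104 CPM in control, at 105, 92.9 and 92.9 CPM in LIN28A knockout and at 112, 109 and 101 CPM under the LIN28B label. LIN28A knockout was mostly lower than control but touched its range. The log2 fold change was −0.28 ± 0.12 (edgeR adjusted p = 0.427). SEC61G, the other small subunit gene, was at 37.0, 37.0 and 37.1 CPM in control and at 31.4, 38.1 and 22.7 CPM in LIN28A knockout, on both sides of control (log2 fold change −0.27 ± 0.18, edgeR adjusted p = 0.643).

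SSR3, a subunit gene of the translocon-associated protein complex, stood at 148, 150 and 141 CPM in control, at 130, 134 and 139 CPM in LIN28A knockout and at 187, 181 and 135 CPM under the LIN28B label. Replicates 1 and 2 under the LIN28B label were the highest of all libraries, and replicate 3 lay within the range of the LIN28A knockout libraries. Its log2 difference between LIN28A knockout and the LIN28B label was −0.32 ± 0.13 (edgeR adjusted p = 0.233). The partner subunit gene SSR1 was at 473 ± 14.1, 518 ± 52.2 and 490 ± 14.7 CPM (n = 3 each), SEC62, which serves post-translational import, at 184 ± 34.9, 184 ± 14.4 and 187 ± 13.0 CPM (n = 3 each), and SEC63, the J-domain partner of the channel, at 308 ± 23.1, 337 ± 70.6 and 289 ± 8.30 CPM (n = 3 each).

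**Figure D3:**
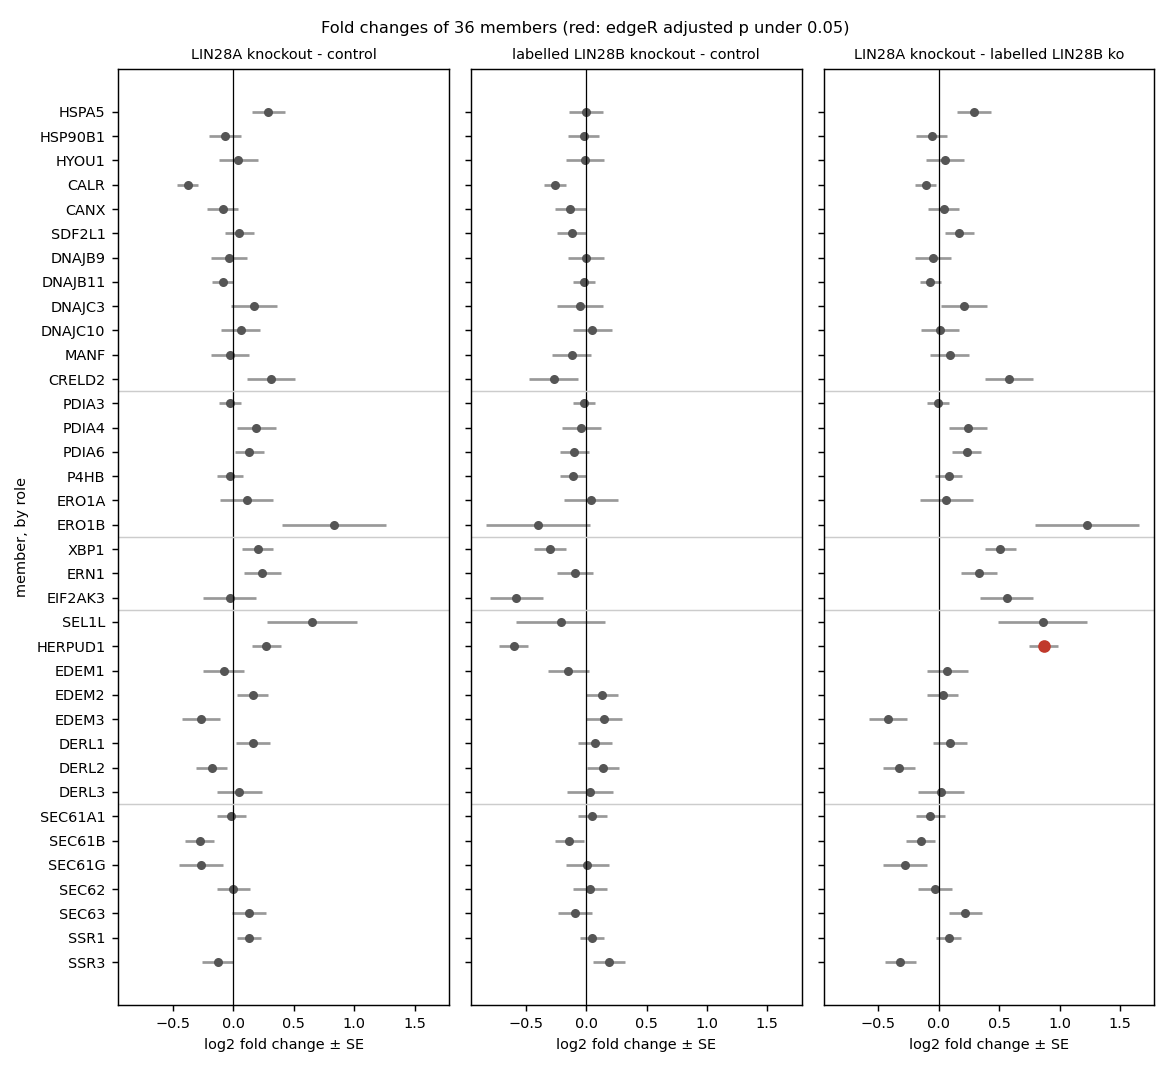
Log2 fold change of each member with its SE (bars) in the 3 comparisons, members in rows by role. HERPUD1 in LIN28A knockout against the libraries labelled LIN28B knockout, at 0.87, is the 1 red point, passing edgeR at an adjusted p under 0.05.

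A second pattern came from a single library and was not confined to the set. LIN28A knockout replicate 3, which also had the lowest LIN28A level of the 9 libraries, held the highest value of all libraries for 18 of 36 members (50%), against 28.2% of all genes tested, and the lowest for 3 members (8.33%), against 28.5% of genes. The members took 0.927% of its counts, against 0.776% to 0.869% in the other 8 libraries. On a log2 scale of CPM plus a pseudocount of 1, 9 members (25%) stood more than 0.5 above the mean of replicates 1 and 2 of the group, against 17.4% of genes. These were HYOU1, DNAJC3, CRELD2, PDIA4, ERO1A, ERO1B, EIF2AK3, SEL1L and DERL3, and they were picked out by this difference, so that it is a description and was not tested. The ratio of replicate 3 to the mean of replicates 1 and 2 was 3.35 for ERO1B, 3.01 for SEL1L, 1.77 for EIF2AK3, 1.69 for DNAJC3, 1.69 for ERO1A, 1.57 for HYOU1, 1.55 for CRELD2, 1.51 for PDIA4 and 1.43 for DERL3. For these 9 genes it ran from 0.740 to 1.31 under the LIN28B label and from 0.825 to 1.43 in control. LIN28A knockout replicate 3 also had the lowest summed fibroblast marker level of its group (454 CPM) and the lowest summed germ cell marker level of all libraries (3000 CPM). Of the germ cell markers, DAZL was the highest of its group there, at 1510 CPM against 1340 and 1390 CPM. PRDM14 lay between replicates 1 and 2, and the other germ cell markers were lower than in both. The part of these marker levels in this pattern was not tested. Other members were not higher there: HSP90B1, P4HB and SEC61A1 had ratios of 0.970, 0.969 and 0.919 in LIN28A knockout, and SEC61G of 0.654. Some pathway genes outside the set, described below, also had their highest value there, such as SEC61A2 and SIL1, at ratios of 2.14 and 1.79. Others had their lowest value there, such as DNAJC1 and KDELR3, at ratios of 0.761 and 0.484. Replicate 3 of control stood above replicates 1 and 2 as well, by less, with a median log2 difference over the members of 0.17, against 0.21 in LIN28A knockout, 0.05 under the LIN28B label and −0.01, −0.01 and −0.02 over all genes in the same groups.

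**Figure D4:**
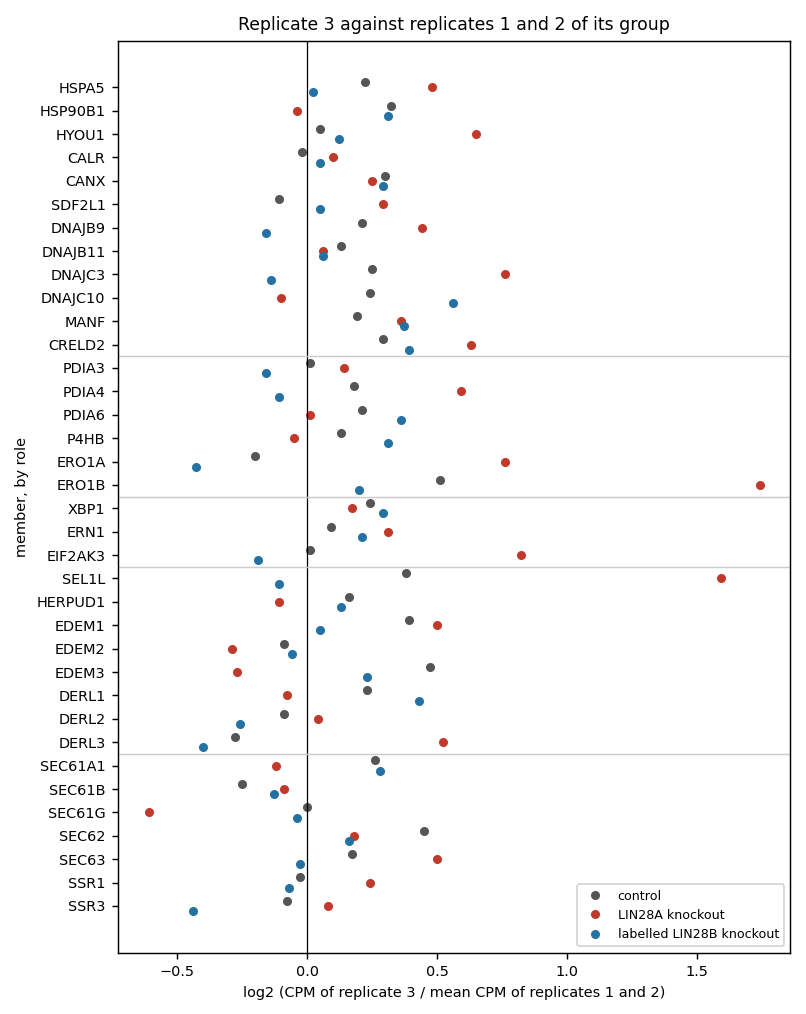
Log2 ratio of each member's CPM in replicate 3 to the mean of replicates 1 and 2 of the same group, for control (grey), LIN28A knockout (red) and the libraries labelled LIN28B knockout (blue). The red points of ERO1B and SEL1L, at ratios of 3.35 and 3.01, stand far right of the others.

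Other genes of the pathway came from a list of 84 symbols, of which 71 were matched and tested. EdgeR called 0 of the 71 in each comparison. At an unadjusted p under 0.05 there were 1 higher and 3 lower in LIN28A knockout, 2 higher and 4 lower under the LIN28B label, and 5 higher and 6 lower in LIN28A knockout against the LIN28B label. These were 5.63%, 8.45% and 15.5% of the 71, below the 10.6%, 8.87% and 18% of all genes. DESeq2 called 1 higher, 0, and 5 higher and 1 lower in the same comparisons, where it called 2.12%, 0.751% and 6.05% of genes. The median log2 fold changes of −0.02, −0.01 and −0.02 were near those of all genes. Genes of folding, glycosylation, signal recognition and degradation lay mostly close to control: 12 of 18, 10 of 12, 13 of 14 and 11 of 13 were within 0.2 of 0 on the log2 scale in LIN28A knockout, and 11, 10, 13 and 10 under the LIN28B label. SDF2, the paralogue of SDF2L1, was at 53.5, 64.5 and 60.2 CPM in control and at 44.2, 43.3 and 49.1 CPM in LIN28A knockout, without overlap (−0.38 ± 0.12 on the log2 scale, edgeR adjusted p = 0.294). UBE2J2, a ubiquitin-conjugating enzyme gene of ER degradation, was at 198 ± 12.4 CPM in control and 170 ± 7.23 CPM in LIN28A knockout (n = 3 each), also without overlap (−0.22 ± 0.09, edgeR adjusted p = 0.424). TXNDC11, a thioredoxin-domain gene, was at 23.7 ± 0.871 CPM in control and 30.3 ± 3.20 CPM under the LIN28B label (n = 3 each), again without overlap (0.35 ± 0.13, edgeR adjusted p = 0.509). DNAJC1, an ER J-domain gene, differed between LIN28A knockout and the LIN28B label by −0.57 ± 0.14 on the log2 scale, which passed DESeq2 (adjusted p = 0.0199) and not edgeR (adjusted p = 0.0992).

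The 12 tested genes of stress sensing and output held the largest differences of this list, with 0, 0 and 0 called by edgeR and medians of 0.30, −0.05 and 0.54 in the 3 comparisons. In the same order 1 higher, 4 lower and 5 higher had an unadjusted edgeR p under 0.05. These were 8.33%, 33.3% and 41.7% of the 12, against 10.6%, 8.87% and 18% of all genes. The list was chosen with earlier results of these data known, so these shares are a description and not a test. DDIT3, TRIB3, PPP1R15A and CREB3, also listed under stress sensing and output, were not analysed here. ATF4, the transcription factor translated when EIF2AK3 or related kinases are active, stood at 515, 512 and 541 CPM in control, at 524, 526 and 614 CPM in LIN28A knockout and at 308, 297 and 455 CPM under the LIN28B label. CEBPB, a transcription factor that pairs with ATF4, stood at 46.7, 49.7 and 53.4 CPM in control, at 55.2, 49.6 and 125 CPM in LIN28A knockout and at 18.6, 15.5 and 29.3 CPM under the LIN28B label. CHAC1, a glutathione-degrading enzyme gene and target of ATF4, stood at 58.4, 68.1 and 62.9 CPM in control, at 59.5, 53.1 and 150 CPM in LIN28A knockout and at 6.72, 7.62 and 34.4 CPM under the LIN28B label. For these 3 genes every LIN28B-labelled library was below every control, and LIN28A knockout replicate 3 was the highest library. Their log2 differences between LIN28A knockout and the LIN28B label were 0.65 ± 0.16, 1.86 ± 0.36 and 2.43 ± 0.62, which did not pass edgeR (adjusted p = 0.0958, 0.0591 and 0.105) and passed DESeq2 (adjusted p = 0.0152, 2.1e-05 and 0.0217). Without LIN28A knockout replicate 3 the differences were 0.57, 1.31 and 1.79, of which that of CEBPB passed edgeR (adjusted p = 0.0965, 0.0181 and 0.129). In that fit CEBPB was also called lower under the LIN28B label than in control, by −1.24 on the log2 scale (edgeR adjusted p = 0.0308).

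ATF3, another stress-induced transcription factor gene, was also lowest under the LIN28B label and highest in LIN28A knockout replicate 3, at 20.7, 24.5 and 29.2 CPM in control, 20.8, 25.0 and 98.1 CPM in LIN28A knockout and 9.28, 7.27 and 14.0 CPM under the LIN28B label. Between the knockout labels ATF3 differed by 2.24 ± 0.54 on the log2 scale (edgeR adjusted p = 0.0958, DESeq2 adjusted p = 0.000418). Without LIN28A knockout replicate 3 the difference of ATF3 was 1.17 and passed edgeR (adjusted p = 0.0448), as did its −1.28 under the LIN28B label against control (adjusted p = 0.0437). CREB3L1 encodes a transcription factor anchored in the ER membrane and known for driving collagen secretion in mammals. It stood at 1.71, 1.91 and 1.60 CPM in control, at 5.60, 6.46 and 9.51 CPM in LIN28A knockout and at 1.27, 2.15 and 3.34 CPM under the LIN28B label. All LIN28A knockout libraries were above all others. Most fibroblast markers were lower in LIN28A knockout replicate 3 than in replicates 1 and 2: COL1A1, COL1A2, LUM, DCN, POSTN, TWIST1 and THY1. COL1A1, for instance, was at 590, 517 and 73.3 CPM in replicates 1, 2 and 3. COL3A1 alone was higher there, at 230, 237 and 337 CPM. In replicates 1 and 2 of LIN28A knockout, COL1A1, COL3A1, DCN, POSTN and THY1 were above every control library. COL1A2, LUM and TWIST1 lay within the control range in them. COL1A1 stood at 109, 102 and 49.6 CPM in control. Without LIN28A knockout replicate 3, edgeR called COL1A1 and POSTN alone of these markers. They were higher than in control by 2.67 and 3.10 on the log2 scale (edgeR adjusted p = 0.00411 and 0.0457). The part of these markers in the level of CREB3L1 was not tested. The log2 fold change of CREB3L1 against control was 2.04 ± 0.38, which did not pass edgeR over all libraries (adjusted p = 0.126), passed it without LIN28A knockout replicate 3 (adjusted p = 0.0344) and passed DESeq2 (adjusted p = 6.3e-05).

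**Figure D5:**
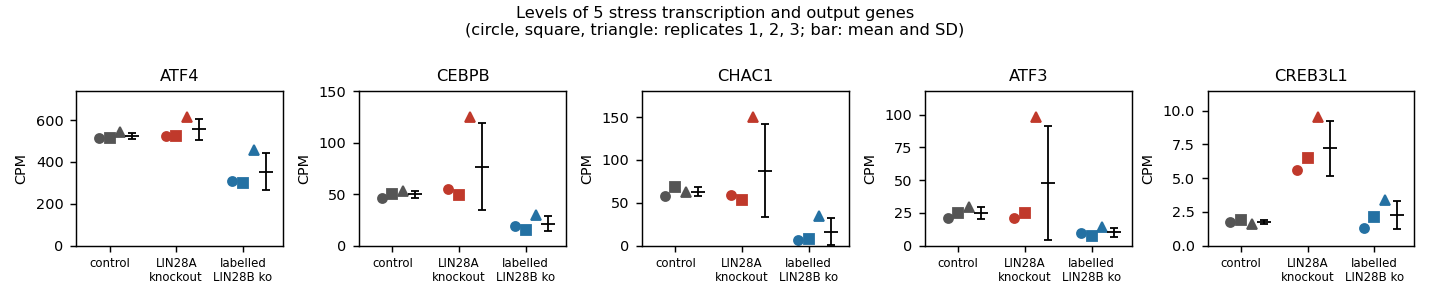
CPM of 5 stress genes outside the set in each library, with circles, squares and triangles for replicates 1, 2 and 3 and bars for the mean and SD of each group of 3. ATF4, CEBPB and CHAC1 are below control in all libraries labelled LIN28B knockout, and the triangle of LIN28A knockout is the highest point in every panel.

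The authors' deposited tables, from DESeq2 comparisons of each knockout label with control, list all 36 members. In the authors' deposited table for LIN28A knockout 1 member has an adjusted p under 0.05, CALR, at a log2 fold change of −0.37 and an adjusted p of 0.0174, where 1.91% of genes with an adjusted p pass. In the authors' deposited table for LIN28B knockout 2 members pass, HERPUD1 at −0.61 (adjusted p = 0.00180) and EIF2AK3 at −0.59 (adjusted p = 0.00195), against 4.6% of genes. The DESeq2 fit made here held all 9 libraries and called 0.751% of genes in that comparison. There HERPUD1 passed (DESeq2 adjusted p = 0.00769), and EIF2AK3, at −0.59, did not (DESeq2 adjusted p = 0.315).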

How the data were processed

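Poly(A) RNA of 9 libraries was analysed. The submitters' processing notes name the tools edgeR 3.38.4, DESeq2 1.36.0, featureCounts 2.0.3 and HISAT2 2.1.0 and the builds galGal6 and GRCg6a, without their roles. The authors deposited raw counts, 1 whole number for each Ensembl identifier and library. The strand setting of the counting was not given in the sources used here, nor was the annotation release, and where genes overlap their reads cannot be told apart. The deposited tables hold the authors' log2 fold changes with standard errors, their p-values and adjusted p-values and a Wald statistic (a score, not used), per the file headers, and paired identifiers with 13354 symbols.

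The test was that of edgeR 4.0.16 under R 4.3.3, run on the counts (filterByExpr defaults, TMM scaling, quasi-likelihood F test of all 9 libraries on group, Benjamini-Hochberg adjustment over 15475 genes). SE is the fold change over the root of F. The common dispersion corresponded to a biological coefficient of variation of 0.265. The edgeR steps were also run on simulated counts. These were drawn independently for each library, without the difference of replicate 3 seen here, so the run does not test the steps under it. Floors cover counting error only. DESeq2 1.42.0 and the other alternatives are given at the end. The members and lists were chosen with earlier results of these data known. Named were HSPA5, the sensor genes, per comparison the 6 members with the smallest p, called members, and up to 4 other pathway genes; means of further members, and genes picked for replicate 3, were added after their values were seen.

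Whether replicate numbers pair libraries was checked over 10151 genes by correlating deviations from group means (log2 of CPM plus 1). Same-numbered libraries correlated at 0.397, 0.249 and 0.382 between control and LIN28A knockout and at 0.397, 0.433 and 0.560 between control and the LIN28B label. Each value was above 0.1, the criterion set for pairing. The main fit still held no term for replicate number, so its p-values are unpaired, and a replicate block was run as an alternative. Libraries 1 and 2 with unlike numbers correlated about as much (0.310 and 0.326, and 0.425 and 0.428), so the values set replicate 3 apart from 1 and 2 and do not tell 1 from 2, and the labels state no pairing. Between the knockouts same-numbered libraries correlated at 0.129, 0.0794 and 0.119, not all above 0.1. There too replicate 3 of each correlated negatively with replicates 1 and 2 of the other, at −0.145 to −0.082. Replicate 3 was thus set apart in the same way between the knockouts, but more weakly.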

Additional observations from a re-analysis of the deposited data

How the results depend on the processing

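With a replicate block the counts of called members and of other pathway genes in either knockout against control stayed at 0. Among all genes the block raised the share called from 0.00646% and 0.0129% to 0.084% and 0.155% in those comparisons. Between LIN28A knockout and the LIN28B label, where that criterion for pairing was not met, the block gave 3 members (HERPUD1, XBP1 and CRELD2) in place of 1. It gave 8 other pathway genes in place of 0, against 5.75% of genes.

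With DESeq2 the counts of called members were 1, 1 and 2 for LIN28A knockout against control, the LIN28B label against control and the labels against each other, and those of other pathway genes 1, 0 and 6. Among all genes DESeq2 called 2.12%, 0.751% and 6.05% in these comparisons. With the 2 groups compared alone, 0 members were called between the labels, where 9 of 15117 genes were called. With no filter 1 other pathway gene was called there, and 136 of 20497 genes. With replicates 1 and 2 of each group only, pairs of libraries that lie close together, members called were 12, 11 and 20 and other pathway genes 24, 24 and 43, while 30.1%, 31.2% and 39.5% of all genes were called. Leaving out 1 library gave 0 to 1, 0 to 2 and 0 to 1 members and 0 to 1, 0 to 2 and 0 to 4 other pathway genes. Those fits called 0 to 2.86%, 0 to 1.05% and 0 to 3% of all genes, the most without LIN28A knockout replicate 3. All other counts of members and of other pathway genes equalled those of the full fit. Against control, the gains without LIN28A knockout replicate 3 were CALR and CREB3L1 in LIN28A knockout and EIF2AK3, HERPUD1, CEBPB and ATF3 under the LIN28B label, where 1 other pathway gene was also gained without LIN28B knockout replicate 3.

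Of 432 values of single members under the alternatives, 390 kept direction and call, 27 gained and 7 lost a call and 8 turned sign. Those 8 were EIF2AK3 in LIN28A knockout against control without replicate 1 (0.12) or 2 (0.11; range −0.36 to 0.12 over libraries left out), ERO1B there without replicate 3 (−0.01; range −0.01 to 1.14), and HSPA5 under the LIN28B label, at 0.00 with DESeq2, −0.03 and −0.04 without control replicate 1 or 2, and −0.03 and −0.01 without LIN28B knockout replicate 1 or 3 (range −0.04 to 0.08). The median log2 fold change over members in LIN28A knockout against control went from 0.04 to −0.07 without LIN28A knockout replicate 3. RLE scaling and the stricter filter moved no count of called members.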
